A study of Homo sapiens with 6 samples.

Results

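The TNF superfamily is a set of cytokines (ligands) and cell surface receptors through which cells tell each other to live, die or mount inflammation. Death domain receptors can assemble a caspase-activating complex, whereas most of the other receptors recruit TRAF adaptor proteins, several of which are ubiquitin ligases and which pass the signal to NF-kappaB and stress kinases. Several of these ligands and receptors are best known from leukocytes, and TRAIL, FAS ligand and TNF are death-inducing ligands that have been studied on melanoma cells. The genes described here are those of TNF ligands, TNF receptors and TRAFs, taken by symbol from probe sets that name exactly 1 gene, with the brightest probe set kept per gene. This gave 43 genes of 18417 tested: 13 ligands, 24 receptors (7 with a death domain, 2 decoy or soluble, 15 others) and 6 TRAFs. Another 3 probe sets that name such a gene together with other genes were left out, and so were superfamily genes whose symbols the rule does not hold, such as NGFR and CD70.

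The RNA came from A375, an established human melanoma cell line that carries the BRAF V600E mutation, and the arrays were single-colour Affymetrix arrays. The vemurafenib group (3 arrays) was given 10 µM vemurafenib, an inhibitor of mutant BRAF, for 24 h, and the vehicle group (3 arrays) was given 0.1% DMSO for 24 h. Both groups were cells of the same line, prepared as 3 independent batches from separate stocks on separate days. The authors' values are log2 intensities of probe sets. Levels below are log2 values of single arrays or their group means with the SD, and a change is the vemurafenib mean less the vehicle mean (log2). In such bulk RNA, fewer cells of a type and less RNA per cell cannot be told apart.

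Array medians lay between 7.69 and 7.73, and correlations over all probe sets ran from 0.9936 to 0.997 within groups and from 0.9789 to 0.9829 between them. As a guide to background, 361 olfactory receptor genes, a family used mainly by sensory neurons, had a median level of 5.52 and a 95th percentile of 7.28. Of the pigment cell markers, MITF (10.91 with vemurafenib and 10.17 in vehicle), SOX10 and S100B lay well above this, while PMEL, MLANA, TYR and TYRP1 lay within it in both groups. All 7 measured leukocyte markers lay within it in both groups, with a mean level of 5.89 to 6.0 on the vemurafenib arrays and 5.93 to 6.05 on the vehicle arrays, and 1 of them, CD14, fell. Among 5 fibroblast markers LUM, PDGFRB and DCN rose, DCN within the olfactory receptor range in both groups, while COL1A1 changed by 0.01 and COL1A2 by -0.15 without passing. The mean level of the 5 was 8.16 to 8.37 with vemurafenib and 7.5 to 7.63 in vehicle. Of 4 endothelial markers, PECAM1 and KDR fell (mean level of the 4, 6.53 to 6.69 with vemurafenib and 6.78 to 6.95 in vehicle), and of 4 keratinocyte markers 0 passed in limma (KRT14 alone had an unadjusted p under 0.05, at 0.0228). The part of these in the results below was not tested.

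Of the 43 genes, 6 rose and 13 fell with vemurafenib at an adjusted p under 0.05 (limma, with p values adjusted by Benjamini-Hochberg across the 18417 genes). Among members the death receptor genes TNFRSF21 and TNFRSF10A and the TWEAK receptor gene TNFRSF12A fell furthest, and TNFRSF19 and TNFRSF9 rose most. Both group means of TNFRSF9 lay within the olfactory receptor range. Together 19 of 43 genes passed (44.2%), against 45.5% of all genes, so the share of members that passed was near the background. By direction, 14.0% of members rose against 23.2% of all genes, and 30.2% fell against 22.2%. Once array medians had been set equal, 4 members passed upwards and 17 downwards, against 20% and 30.6% of all genes in that fit. After renewed quantile normalization 6 and 16 did, against 24.1% and 24.3%. The median change of the 43 was -0.10, against -0.045 over all genes. Changes of at least 2-fold that passed were seen for 2 of the 43 genes, against 5.69% of all genes. The groups did not overlap for 21 of the 43 genes, against 55.4% of all genes. In 6 of these the vemurafenib arrays lay above, against 26.9% of all genes, and in 15 below, against 28.5%.

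**Figure D1:**
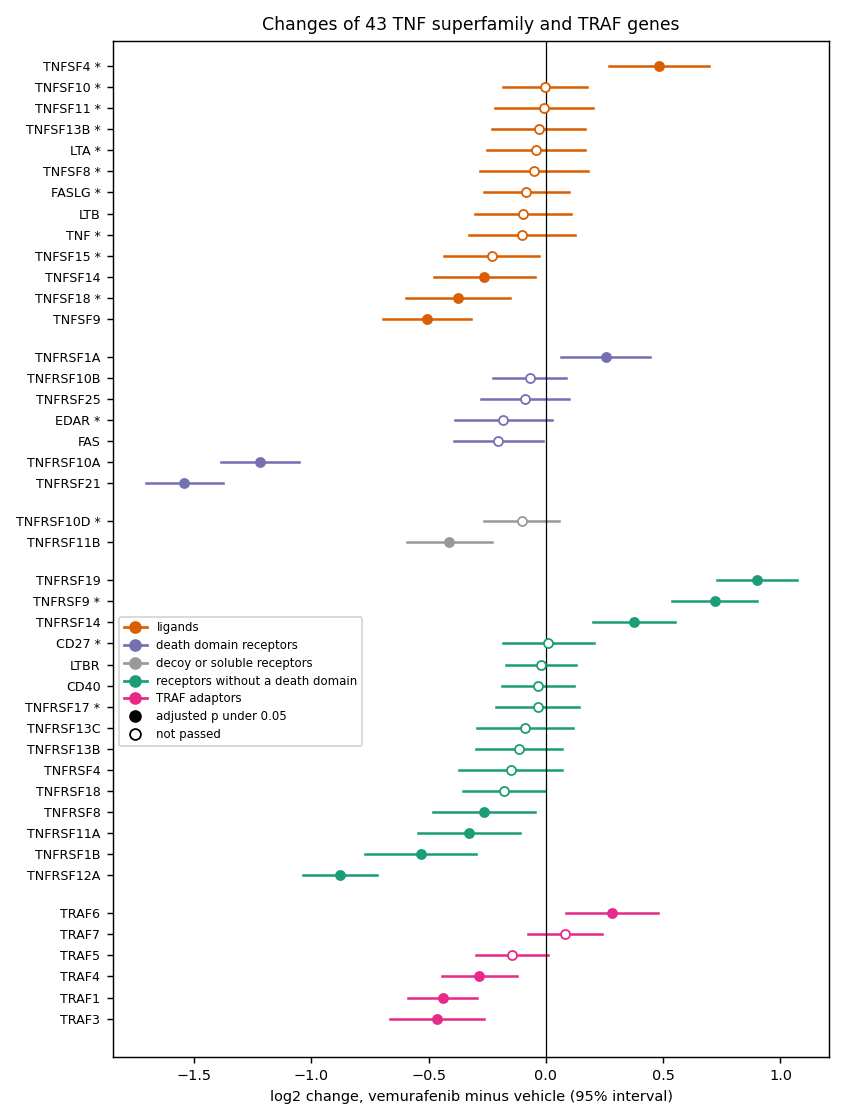
Log2 change, vemurafenib minus vehicle, for each of the 43 genes by role, with its 95% interval from limma, not adjusted for multiple testing. Filled points passed the adjusted threshold, asterisks mark genes within the olfactory receptor range in both groups, and TNFRSF21 (-1.54) and TNFRSF19 (0.90) are the extremes.

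Levels divided the genes by role. Of the 13 ligands, 10 lay within the olfactory receptor range in both groups, as did 5 of the 24 receptors and 0 of the 6 TRAFs. That is 15 of the 43 members, against 5461 of all 18417 genes. For these 15 genes a level above background was not shown. Of them, 3 passed the test (TNFRSF9, TNFSF4 and TNFSF18), against 45.5% of all genes at any level. The share that passed among all genes within that range was not counted, so no contrast is drawn from these values. A level above the olfactory receptor range does not by itself show expression. The brightest members were TNFRSF12A (mean over the 6 arrays 11.32), TNFRSF1A (10.83), TRAF7 (10.81), LTBR (10.76) and TNFRSF10B (10.41), levels that carry each probe set's own efficiency and give no order of RNA amounts. Vehicle replicate 2 was the highest vehicle array for 24 of the 43 genes and for 11 of the 15 dim ones, against 35.9% of all genes and 61.0% of all genes within that range in both groups. Vemurafenib replicate 3 was the highest of its group for 23 of the 43 genes, against 40.9% of all genes. Without vehicle replicate 2, 4 members passed upwards and 12 downwards, against 21.5% and 20.5% of all genes in that fit.

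**Figure D2:**
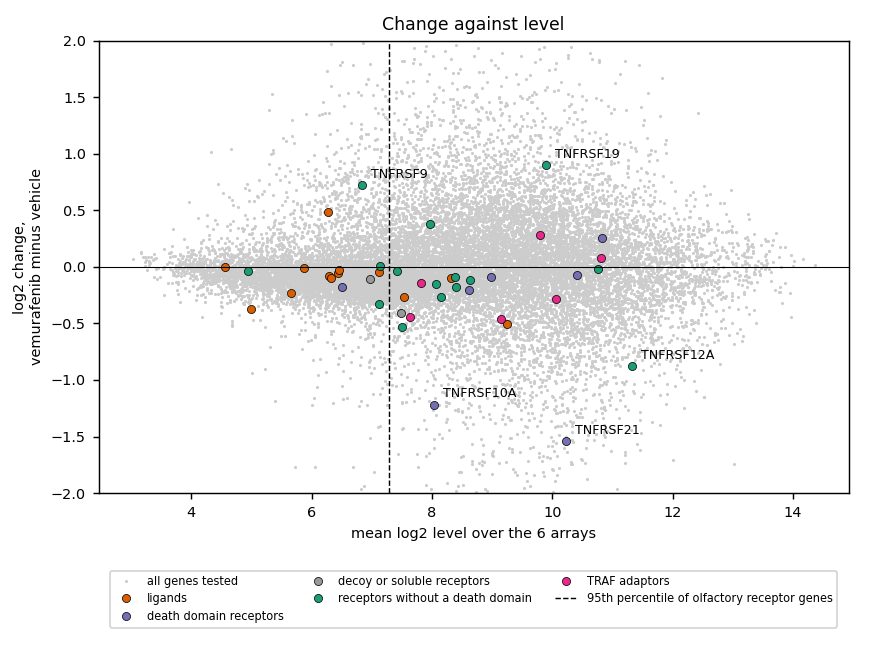
Log2 change (vertical axis) against the mean log2 level over the 6 arrays (horizontal axis) for all genes tested, in grey, and for the 43 members by role. The dashed line is the olfactory receptor 95th percentile of 7.28, and 132 genes with changes beyond 2 in size lie outside the plotted range.

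Among the 7 death domain receptors, 2 fell and 1 rose, against 22.2% and 23.2% of all genes. TNFRSF21 (death receptor DR6; probe set 8126839) had levels of 9.45, 9.34 and 9.55 on the vemurafenib arrays, against 10.97, 10.98 and 11.01 on the vehicle arrays. The groups lay far apart, with the vehicle arrays almost level with each other. Its mean was 9.45 ± 0.10 with vemurafenib and 10.99 ± 0.02 in vehicle (SD, n = 3), a change of -1.54 (SE 0.08) or 2.91-fold lower (95% interval 2.60 to 3.26), with a limma adjusted p of 3.48e-08. It ranked 150 of 18417 genes from the largest fall.

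The 300 bases around the RefSeq start of TNFRSF21 are shown because this gene fell furthest (GRCh38.p14, chr6:47309856-47310155, minus strand, 250 bases before to 50 after the start). They hold no match to any of 5 searched motifs, so no letters are in capitals, and 63.3% of the bases are G or C.
TNFRSF21: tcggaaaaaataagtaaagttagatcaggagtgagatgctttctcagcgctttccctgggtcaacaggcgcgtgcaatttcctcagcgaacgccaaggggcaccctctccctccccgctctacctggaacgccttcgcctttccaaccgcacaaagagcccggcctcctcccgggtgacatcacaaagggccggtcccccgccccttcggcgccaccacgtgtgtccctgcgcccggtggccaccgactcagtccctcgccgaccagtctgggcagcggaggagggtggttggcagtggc

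TNFRSF10A and TNFRSF10B encode the death receptors of TRAIL. TNFRSF10A (probe set 8149762) had levels of 7.41, 7.33 and 7.53 with vemurafenib, against 8.63, 8.61 and 8.69 in vehicle. Every vemurafenib array lay more than a log2 unit below every vehicle array and just above the olfactory receptor range. The change was -1.22 (SE 0.08), 2.33-fold lower (95% interval 2.07 to 2.61), with a limma adjusted p of 2.06e-07. TNFRSF10B had levels of 10.39, 10.40 and 10.35 with vemurafenib and 10.46, 10.37 and 10.51 in vehicle. These groups overlapped, the change being -0.07 (95% interval -0.22 to 0.09) with a limma adjusted p of 0.452. The change of TNFRSF10A was lower than that of TNFRSF10B by 1.15, and the groups of this within-array difference did not overlap (exact permutation test, 2-sided, p = 0.1, the smallest that 3 against 3 arrays allow; 0.12 after adjustment over 6 such pairs). These 6 pairs were chosen after their values were seen, and with 3 arrays a group none of them could pass 0.05.

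TNFRSF10D, a decoy receptor for TRAIL, stood at 6.92 ± 0.02 with vemurafenib and 7.03 ± 0.09 in vehicle (SD, n = 3; limma adjusted p 0.272), within the olfactory receptor range. TNFSF10, the gene of TRAIL itself, had 4.56 ± 0.11 and 4.57 ± 0.08 with vemurafenib and vehicle (SD, n = 3). That is the lowest level of the 43 genes, below the olfactory receptor median, and whether it changed cannot be told from these values.

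TNFRSF1A encodes the main receptor of TNF on most cells. It had levels of 11.00, 10.80 and 11.06 with vemurafenib, against 10.77, 10.62 and 10.70 in vehicle. The groups lay apart by a narrow margin. The change was 0.25 (SE 0.09) with a limma adjusted p of 0.0304, but the call ended after centring (limma adjusted p 0.0633) and without vehicle replicate 2 (0.0886), vehicle replicate 3 (0.0682), vemurafenib replicate 1 (0.0966) or vemurafenib replicate 3 (0.0950). TNFRSF1B, the second TNF receptor, which lacks a death domain, had levels of 7.40, 6.97 and 7.35 with vemurafenib, against 7.80, 7.83 and 7.697 in vehicle. All its vehicle arrays were above, and its vemurafenib mean of 7.24 was within, the olfactory receptor range. Its change was -0.53 (SE 0.11), with a limma adjusted p of 0.00164. No size is given for the difference between the changes of TNFRSF1B and TNFRSF1A, another of the 6 pairs, because the vemurafenib mean of TNFRSF1B lay within background.

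The change of TNFRSF21 was lower than that of FAS by 1.34, the groups of this difference lying apart. The exact permutation test (2-sided) gave p = 0.1, the smallest possible, and 0.12 after adjustment. This is another of the 6 pairs chosen after their values were seen, so nothing is concluded from the test. The other death domain receptors did not pass. FAS, the receptor of FAS ligand, had levels of 8.61, 8.52 and 8.38 with vemurafenib and 8.80, 8.59 and 8.74 in vehicle, a change of -0.20 (95% interval -0.39 to -0.01; limma adjusted p 0.0755). Its groups overlapped through vehicle replicate 2, and it passed without that array (limma adjusted p 0.0335), after centring (0.0231), after renewed quantile normalization (0.0219), with array weights (0.0300) and without the dimmest 50% of genes (0.0419). TNFRSF25, the receptor of TL1A, changed by -0.09 (95% interval -0.28 to 0.10). EDAR, the ectodysplasin receptor of hair, tooth and sweat gland development, was dim, at 6.41 ± 0.09 with vemurafenib and 6.59 ± 0.17 in vehicle (SD, n = 3).

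Of the 15 receptors without a death domain, 3 rose and 4 fell, against 23.2% and 22.2% of all genes, and 8 did not pass. TNFRSF12A, the receptor of TWEAK, had levels of 10.88, 10.84 and 10.92 with vemurafenib, against 11.82, 11.77 and 11.68 in vehicle. The groups were tight and far apart. Its change was -0.88 (SE 0.07), 1.84-fold lower (95% interval 1.65 to 2.05), with a limma adjusted p of 1.73e-06.

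TNFRSF19 (TROY), a receptor best known from the nervous system and from epithelial stem cells, moved the other way. Its levels were 10.40, 10.32 and 10.29 with vemurafenib, against 9.46, 9.32 and 9.53 in vehicle. All vemurafenib arrays exceeded all vehicle arrays, and the change of 0.90 (SE 0.08), or 1.86-fold (95% interval 1.66 to 2.10), had a limma adjusted p of 2.75e-06.

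TNFRSF9 and TNFSF9 are a receptor (the T cell costimulator 4-1BB) and its ligand. TNFRSF9 had levels of 7.11, 7.17 and 7.33 with vemurafenib, against 6.45, 6.58 and 6.42 in vehicle. The groups did not overlap, but 5 of these 6 values lie within the olfactory receptor range, so the change of 0.72 (SE 0.08; limma adjusted p 2.54e-05) is a difference between array values near background. TNFSF9 had levels of 9.01, 9.14 and 8.84 with vemurafenib, against 9.46, 9.56 and 9.48 in vehicle. It was the brightest ligand, its groups lay apart, and its change was -0.51 (SE 0.09), 1.42-fold lower, with a limma adjusted p of 0.000492. No size is given for the difference between the changes of TNFSF9 and TNFRSF9, one of the 6 pairs, because TNFRSF9 lay within background.

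The promoter of TNFRSF9, which with that of TNFSF14 is one of 2 member promoters that hold both AP-1 and NF-kappaB matches, is shown as that of a gene that rose (GRCh38.p14, chr1:7940790-7941089, minus strand). Capitals mark an AP-1 match, TGAGTCA, that begins 44 bases before the start. They also mark 2 overlapping matches to the NF-kappaB consensus motif, from 74 bases before the start. Of these 2, GGGAATTTCC matches as printed. The other, GGAATTTCCC in the printed letters, matches when read on the opposite strand.
TNFRSF9: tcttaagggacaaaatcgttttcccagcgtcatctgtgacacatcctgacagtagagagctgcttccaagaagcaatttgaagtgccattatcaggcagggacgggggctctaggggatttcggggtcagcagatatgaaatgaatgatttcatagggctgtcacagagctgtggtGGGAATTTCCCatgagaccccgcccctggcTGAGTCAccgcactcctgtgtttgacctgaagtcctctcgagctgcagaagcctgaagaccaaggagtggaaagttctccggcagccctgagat

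TNFRSF14 (HVEM) binds the ligand LIGHT, which TNFSF14 encodes. TNFRSF14 had levels of 8.15, 8.11 and 8.18 with vemurafenib, against 7.89, 7.79 and 7.64 in vehicle, a change of 0.38 (SE 0.08; limma adjusted p 0.00228). All its vemurafenib arrays lay above all vehicle arrays. TNFSF14 had levels of 7.37, 7.32 and 7.53 with vemurafenib, against 7.55, 7.87 and 7.58 in vehicle, a change of -0.26 (SE 0.10; limma adjusted p 0.0474). Its groups were separated by only a small gap. The call was lost, with a limma adjusted p above 0.05, on leaving out vehicle replicate 2 (0.157) or one of vemurafenib replicates 1 (0.121) and 2 (0.145). LTBR, the lymphotoxin beta receptor, which also binds LIGHT, stood at 10.75 ± 0.02 with vemurafenib and 10.77 ± 0.04 in vehicle (SD, n = 3), with a change of -0.02 (95% interval -0.17 to 0.13).

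The RANK system, known from bone resorption, has a receptor (TNFRSF11A, RANK), a ligand (TNFSF11) and a soluble decoy (TNFRSF11B, osteoprotegerin). TNFRSF11B had levels of 7.31, 7.23 and 7.31 with vemurafenib, against 7.84, 7.57 and 7.68 in vehicle, a change of -0.41 (SE 0.08; limma adjusted p 0.00164). TNFRSF11A had levels of 7.06, 6.79 and 7.01 with vemurafenib, against 7.45, 7.26 and 7.14 in vehicle, a change of -0.33 (SE 0.10; limma adjusted p 0.0178). In both genes the groups lay apart close to the edge of the olfactory receptor range, and TNFRSF11A no longer passed in limma on leaving out vehicle replicate 1 (adjusted p 0.0822) or vemurafenib replicate 2 (0.0736). No size is given for the difference between the changes of TNFRSF11B and TNFRSF11A, one of the 6 pairs. The vemurafenib mean of TNFRSF11A, 6.96, lay within background. In the exact permutation test (2-sided) the difference had p = 0.4, and 0.4 after adjustment. TNFSF11 was dim, at 5.86 ± 0.15 with vemurafenib and 5.87 ± 0.13 in vehicle (SD, n = 3).

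TNFRSF8 (CD30), a lymphocyte activation receptor, had levels of 8.03, 7.82 and 8.22 with vemurafenib, against 8.23, 8.38 and 8.25 in vehicle. The groups were separated by very little, and the change of -0.26 (SE 0.10; limma adjusted p 0.0485) was past the threshold by little. The call ended in each of 5 fits with an array left out, with limma adjusted p values of 0.0670, 0.145 and 0.0752 without vehicle replicate 1, 2 and 3 and of 0.0948 and 0.188 without vemurafenib replicate 1 and 2. TNFRSF18 (GITR), a T cell costimulator, changed by -0.18 (95% interval -0.35 to -0.01; limma adjusted p 0.0874). It passed without vemurafenib replicate 3 (limma adjusted p 0.0469), after centring (0.0254), after renewed quantile normalization (0.0276), with array weights (0.0379) and without the dimmest 50% of genes (0.0481).

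The remaining receptors are B and T cell genes or CD40 and did not pass. TNFRSF13B (TACI), TNFRSF13C (BAFF receptor) and TNFRSF17 (BCMA), which bind the B cell survival factors, changed by -0.11, -0.09 and -0.03. TNFRSF4 (OX40) changed by -0.15 and CD27 by 0.01. The mean levels of TNFRSF13B, TNFRSF13C and TNFRSF4 over the 6 arrays were 8.63, 8.38 and 8.06, above the olfactory receptor range. Those of TNFRSF17 (4.95) and CD27 (7.14) lay within it, as did all 7 measured leukocyte markers. CD40, a receptor of antigen-presenting cells that signals through TRAFs, stood at 7.39 ± 0.04 with vemurafenib and 7.43 ± 0.05 in vehicle (SD, n = 3; limma adjusted p 0.710).

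**Figure D3:**
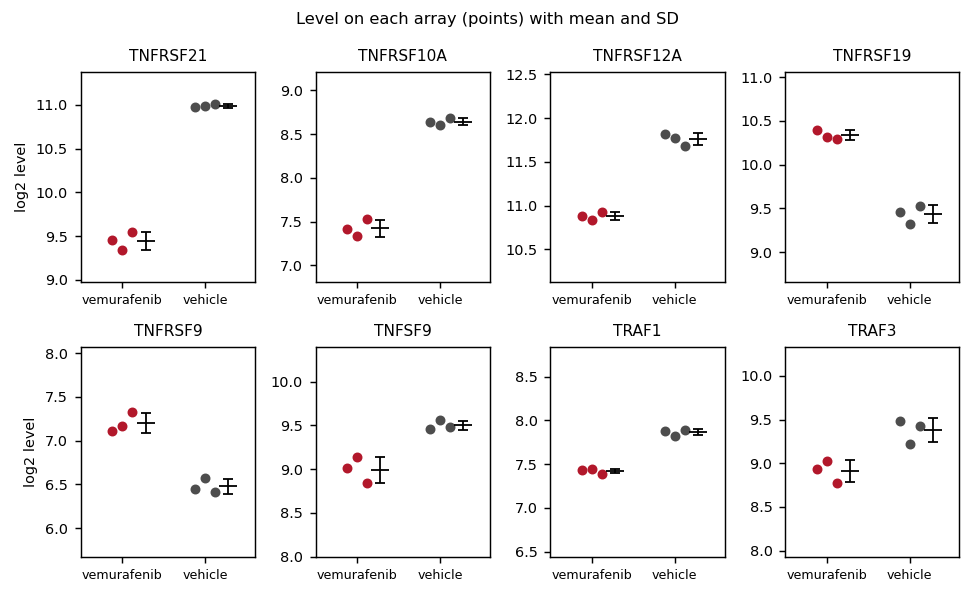
Log2 level on each array (points) for 8 members, vemurafenib left and vehicle right, with the mean and SD of each group; every panel spans 2.4 log2 units. In TNFRSF21, TNFRSF10A, TNFRSF12A, TNFSF9, TRAF1 and TRAF3 all vemurafenib arrays lie below all vehicle arrays, and in TNFRSF19 and TNFRSF9 all lie above.

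Of the 13 ligands, 1 rose and 3 fell, against 23.2% and 22.2% of all genes, TNFSF9 and TNFSF14 having been given above. TNFSF4, the ligand of OX40, had levels of 6.36, 6.72 and 6.47 with vemurafenib, against 5.94, 6.08 and 6.09 in vehicle, a change of 0.48 (SE 0.10; limma adjusted p 0.00159). TNFSF18, the ligand of GITR, had levels of 4.84, 4.65 and 4.92 with vemurafenib, against 5.30, 5.25 and 4.98 in vehicle, a change of -0.37 (SE 0.10; limma adjusted p 0.00961). The groups of both genes lay apart, but within the olfactory receptor range, TNFSF18 below its median.

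TNF itself was dim, at 6.27 ± 0.15 with vemurafenib and 6.37 ± 0.17 in vehicle (SD, n = 3), with a change of -0.10 (95% interval -0.33 to 0.12). Its 3 probe sets gave the same mean and change to 3 decimals and are not taken as separate measurements. LTA, lymphotoxin alpha, changed by -0.04, its other probe sets by 0.03 and 0.07, and LTB by -0.10 with its dimmest probe set at -0.01. None of these passed in limma. FASLG, the ligand of FAS, stood at 6.24 ± 0.09 with vemurafenib and 6.33 ± 0.12 in vehicle (SD, n = 3). TNFSF15 (TL1A), which acts on TNFRSF25, had wholly lower vemurafenib values by a small gap, a change of -0.23 (limma adjusted p 0.0598, and 0.0268 after centring). TNFSF8, the ligand of CD30, and TNFSF13B, the B cell factor BAFF, changed by -0.05 and -0.03. All of these ligands except LTB lay within the olfactory receptor range in both groups.

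Among the 6 TRAF adaptors, 3 fell and 1 rose, against 22.2% and 23.2% of all genes, and with so few genes nothing particular to TRAFs is read from this. TRAF1, an adaptor without the ubiquitin ligase domain of its relatives and itself a known NF-kappaB target, had levels of 7.44, 7.44 and 7.39 with vemurafenib, against 7.88, 7.82 and 7.89 in vehicle. Its groups were tight and apart, with a change of -0.44 (SE 0.07), 1.36-fold lower (95% interval 1.22 to 1.504), and a limma adjusted p of 0.000236. TRAF3, which holds the kinase NIK at low levels and so restrains the noncanonical NF-kappaB pathway, had levels of 8.93, 9.03 and 8.78 with vemurafenib, against 9.48, 9.22 and 9.43 in vehicle. These groups also lay apart, and the change was -0.46 (SE 0.09; limma adjusted p 0.00150).

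TRAF4, first described in breast cancer cells, had levels of 9.94, 9.83 and 10.01 with vemurafenib, against 10.20, 10.23 and 10.20 in vehicle, a change of -0.28 (SE 0.07; limma adjusted p 0.00792). Its groups lay apart, with the vehicle arrays close together. TRAF6, the ubiquitin ligase that serves Toll-like receptors, CD40 and RANK, had levels of 9.90, 10.07 and 9.84 with vemurafenib, against 9.65, 9.53 and 9.79 in vehicle. Its groups were separated by little. The change of 0.28 (SE 0.09; limma adjusted p 0.0236) lost its call after centring (0.0694) and without vehicle replicate 1 (0.0629), vehicle replicate 2 (0.0806) or vemurafenib replicate 2 (0.0944). The changes of TRAF1 and TRAF6 differed by -0.72, with groups of this difference apart. The exact permutation test (2-sided) gave p = 0.1, the smallest possible, and 0.12 after adjustment. This pair too was chosen after its values were seen, so nothing is concluded from the test.

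TRAF5 stood at 7.75 ± 0.03 with vemurafenib and 7.90 ± 0.06 in vehicle (SD, n = 3), with groups that did not overlap. Its change of -0.15 had a limma adjusted p of 0.111, and it passed after centring (0.0254) and after renewed quantile normalization (0.0353). TRAF7, which lacks the TRAF domain that names the family, changed by 0.08 (95% interval -0.08 to 0.24).

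The TRAF1 promoter is shown as that of the TRAF with the lowest adjusted p (GRCh38.p14, chr9:120929122-120929421, minus strand), with 71.3% G or C and, in capitals, an ETS match, CCGGAAG, just after the start.
TRAF1: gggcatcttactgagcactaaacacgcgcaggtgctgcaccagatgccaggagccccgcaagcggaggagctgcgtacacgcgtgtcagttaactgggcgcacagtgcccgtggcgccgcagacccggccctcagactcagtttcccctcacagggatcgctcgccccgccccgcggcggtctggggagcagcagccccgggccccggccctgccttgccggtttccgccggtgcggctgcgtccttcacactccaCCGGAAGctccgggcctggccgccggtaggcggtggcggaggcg

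RefSeq promoters were at hand for 32 of the 43 genes. Of these 32 genes, 6 rose, 10 fell and 16 did not pass, against 23.2% and 22.2% of all genes that rose and fell. The directions given below for each motif are to be read against these counts. Both strands were searched for AP-1 (TGANTCA), ETS (CCGGAAG), TEAD (GGAATG), E2F (TTCCCGC) and the NF-kappaB consensus, motifs chosen after the values were seen. An AP-1 match was in 6 of the 32 promoters, against 5.58% of 14236 promoters of tested genes. These were CD27, FAS, TNFRSF8, TNFRSF9, TNFSF14 and TNFSF15, of which 1 rose, 2 fell and 3 did not pass. NF-kappaB matches were in 6 (LTB, TNFRSF14, TNFRSF25, TNFRSF9, TNFSF14 and TRAF3), against 12.4% of promoters, and of these genes 2 rose, 2 fell and 2 did not pass. ETS matches were in 4 (TNFSF14, TRAF1, TRAF4 and TRAF7; 0 rose and 3 fell), against 14.6% of promoters. TEAD matches were in 4 (2 rose and 0 fell), against 11.6%, and E2F matches in 2 (0 rose and 1 fell), against 8.95%. With so few genes these directions are a description only. A match describes letters in this window and is not a shown binding site.

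Genes around the receptors were taken from lists chosen by function. Over all lists, 24 of 91 measured genes rose and 26 fell, or 54.9% against 45.5% of all genes. By direction these were 26.4% and 28.6%, against 23.2% and 22.2% of all genes, the shares against which each list's counts below are to be read. Of 5 superfamily genes outside the symbol rule, 1 rose and 1 fell. EDA2R, a second ectodysplasin receptor, rose 1.32-fold (9.73 ± 0.04 with vemurafenib and 9.33 ± 0.11 in vehicle; SD, n = 3; limma adjusted p 0.00128), and RELT fell 1.22-fold (limma adjusted p 0.00451). NGFR, the low-affinity neurotrophin receptor and a neural crest marker, stood at 10.91 ± 0.04 with vemurafenib and 10.76 ± 0.12 in vehicle (SD, n = 3; limma adjusted p 0.170). CD70, the ligand of CD27, was bright at 10.05 and 10.02 with vemurafenib and vehicle (limma adjusted p 0.718), and EDA, the ligand of EDAR, was dim in both groups.

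Of 30 adaptors, kinases and ubiquitin genes next to the receptors, 9 rose and 6 fell, with a median change of 0.01. TNFAIP3 (A20), the deubiquitinase that ends NF-kappaB signalling, fell 2.16-fold to 7.09 ± 0.06 with vemurafenib, against 8.20 ± 0.08 in vehicle (SD, n = 3; limma adjusted p 3.74e-07). Its vemurafenib mean lay within the olfactory receptor range, so this is a fold between array values and not a measured fold of RNA. TRAIP, a TRAF-interacting ubiquitin ligase that works in DNA replication, fell 2.18-fold, the TRAF6 activator TIFA 1.69-fold and the necroptosis effector MLKL 1.54-fold, while the caspase inhibitor XIAP rose 1.42-fold. Partners of members that passed were mixed. MAP3K14, the gene of the NIK kinase that TRAF3 binds, fell 1.36-fold, and the TRAF binding protein TANK and the TRAF6 partner TAB2 rose 1.34-fold and 1.37-fold. The death domain adaptors TRADD and FADD changed by 0.27 and -0.16, with limma adjusted p values of 0.0591 and 0.0786, and the TRAF-bound ubiquitin ligase BIRC2 by -0.03.

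Of 14 IKK and NF-kappaB genes, 3 rose and 5 fell. NFKBIA, the inhibitor that holds NF-kappaB in the cytoplasm, rose 2.24-fold (10.96 ± 0.05 with vemurafenib and 9.80 ± 0.11 in vehicle; SD, n = 3; limma adjusted p 3.68e-07). CHUK, an IKK kinase gene, fell 1.49-fold, RELB, the subunit of the noncanonical pathway, 1.39-fold, NFKBIB 1.30-fold and NFKBID 1.28-fold. Of 27 genes that TNF induces through NF-kappaB in many cells, 4 rose and 11 fell (14.8% and 40.7%, against 23.2% and 22.2% of all genes). The median change of the 27 was -0.18, against -0.045 over all genes, and 9 of them lay within the olfactory receptor range in both groups. IER3 fell 6.24-fold, the chemokine gene CXCL8 2.33-fold and the pentraxin PTX3 2.11-fold, the last pair to vemurafenib means within the olfactory receptor range. TNFAIP3, which fell, and NFKBIA, which rose, are also on this list. Several of these genes have other inputs, and IER3 and CXCL8 are also known targets of ERK. The part of any such input in these changes was not tested.

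Of 10 genes of the death receptor caspase pathway, 4 rose and 2 fell. CFLAR, the FLIP protein that blocks caspase activation at death receptors, rose 1.62-fold (8.05 ± 0.06 with vemurafenib and 7.36 ± 0.15 in vehicle; SD, n = 3; limma adjusted p 4.44e-05). CASP9 rose 1.51-fold and CASP6 1.502-fold, BID, which carries the death signal to mitochondria, fell 1.55-fold, and BAK1 fell 1.43-fold. CASP8, the initiator caspase of these receptors, stood at 9.60 ± 0.16 with vemurafenib and 9.51 ± 0.13 in vehicle (SD, n = 3; limma adjusted p 0.462).

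Of 8 genes of ligand and receptor shedding, 4 rose and 2 fell, a count over few genes to be read against 23.2% and 22.2% of all genes. TIMP3, an inhibitor of the TNF-releasing protease, fell 3.26-fold to 11.15 ± 0.04 with vemurafenib, against 12.86 ± 0.01 in vehicle (SD, n = 3; limma adjusted p 7.72e-09). ADAM17, that protease, rose 1.72-fold (11.07 ± 0.11 with vemurafenib and 10.29 ± 0.09 in vehicle; SD, n = 3; limma adjusted p 1.30e-05), and RHBDF1, which brings it to the cell surface, rose 1.89-fold. The intramembrane proteases SPPL2B and SPPL2A rose 1.38-fold and 1.26-fold. FURIN, which activates ADAM17, fell 1.14-fold (limma adjusted p 0.0445), a call lost when any array was left out (limma adjusted p 0.0581 to 0.147). ADAM10 and RHBDF2 changed by 0.0046 and 0.04 and did not pass.

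**Figure D4:**
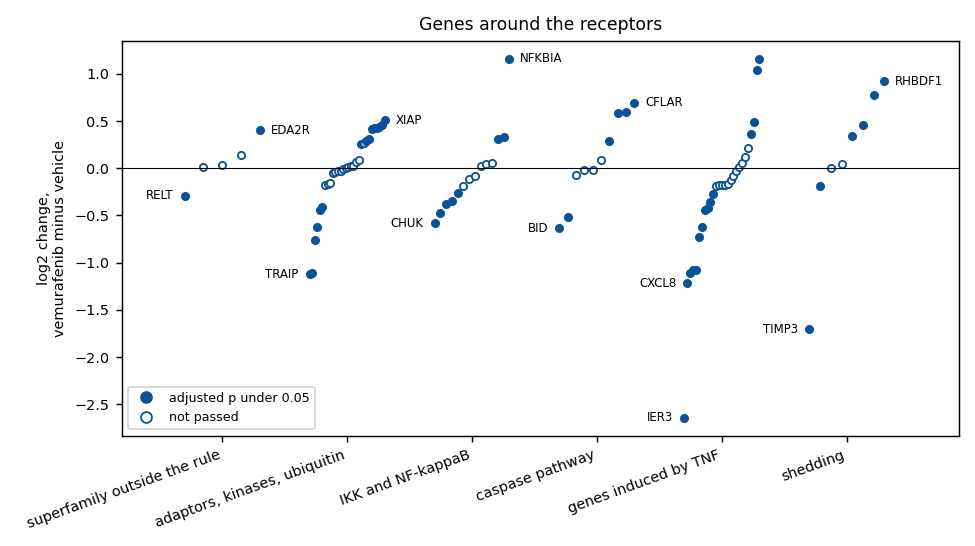
Log2 change, vemurafenib minus vehicle, for each gene of the 6 lists around the receptors; genes on more than 1 list appear more than once. Filled points passed the adjusted threshold, and IER3 (-2.64) and TIMP3 (-1.70) are the largest falls.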

How the data were processed

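RNA of 6 A375 cultures was measured on single-colour arrays. The authors deposited log2 levels per probe set, made with RMA and Partek per the submitters' processing notes, which name no versions. RMA as usually run compresses large folds and hides a change of total RNA per cell. A genome build is not given in the sources used here. The table held 33297 probe sets. Through the platform annotation, 19460 had 1 gene symbol, 1754 several and 12083 none, and keeping the brightest probe set of each gene left 18417 genes with no filter on dim ones.

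Groups came from the sample titles. The test was limma 3.58.1 (lmFit and eBayes, defaults) in R 4.3.3 with the group as the only term, 2-sided, Benjamini-Hochberg adjustment over all genes and a threshold of 0.05. Prior degrees of freedom were 7.08. Single within-array differences were compared with exact permutation tests in scipy 1.17.1. Members, roles and lists were chosen with earlier results of these data known.

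Every member could be named. From each list, the text names up to 5 genes past the threshold by size of change, any gene of a list of 8 or fewer, and direct partners of members that passed. The number of arrays limits the precision. The design text pairs dishes by letter, but the labels do not tie letters to all arrays. Deviations from the group means correlated between same-numbered arrays at 0.142, -0.184 and -0.251, so the numbers were not taken to pair the samples. Between arrays of other numbers the correlations ran from -0.143 to 0.279. The highest were 0.279 (vemurafenib replicate 3 with vehicle replicate 2) and 0.225 (vemurafenib replicate 2 with vehicle replicate 3). A pairing across numbers was not tested. Promoters come from RefSeq (GRCh38.p14), each from 250 bases before to 50 after a start. The alternatives were a replicate block, fixed or random (statmod 1.5.0), centring, renewed quantile normalization, 2 filters on dim genes, averaging over probe sets, limma's array weights, its trended robust eBayes and omission of each array in turn.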

Additional observations from a re-analysis of the deposited data

How the results depend on the processing

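Of the 19 members that passed, 14 passed in each of the 15 alternatives that held them, and 0 of the 19 changed sign. The 5 lost at least once were TNFRSF11A, TNFRSF1A, TNFRSF8, TNFSF14 and TRAF6, and 4 that had not passed did so at least once (FAS, TNFRSF18, TNFSF15 and TRAF5). Without the dimmest 50% of genes, 16 members were left in the fit, of which 3 rose and 7 fell. Of all 9208 genes in that fit, 32.5% rose and 32.3% fell. Of the 60 pathway genes left in it, 21 rose and 14 fell. That filter removes genes by its construction. With 1 array left out at a time, the members that rose numbered 4 to 5 and those that fell 10 to 14, the pathway genes that rose 23 to 24 and those that fell 23 to 29, and all genes that rose 3769 to 4130 and that fell 3380 to 4196. With the replicate block, whose numbers were not found to pair the arrays, 5 members rose and 11 fell (21.7% and 19.6% of all genes in that fit), all 16 shared with the fit without it. TRAF6 (limma adjusted p 0.0561), TNFSF14 (0.0790) and TNFRSF8 (0.0806) were the ones lost. With a random replicate block TNFSF14 (0.0580) and TNFRSF8 (0.0591) were lost. Of the pathway genes that passed, 6 were lost in at least 1 alternative, and 12 others passed in at least 1. Of those that passed, 0 changed sign. Signal near background limits what can be said of most ligands.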
